A study of Mus musculus with 6 samples.

Results

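The genes described here carry the enkephalin, dynorphin and substance P signals of the gut: 3 peptide precursors and 6 receptors, 9 of the 31053 genes counted. They were chosen by symbol (Penk, Pdyn, Tac1, Oprm1, Oprd1, Oprk1, Tacr1, Tacr2 and Tacr3), and each symbol was found under a single gene identifier in all 6 matrices. The nuclei came from the colon of wild-type C57BL/6J mice, a common laboratory strain, and were sorted on DAPI, a DNA stain, and on INTACT, a nuclear tag; the driver of the tag is not named in the labels. The 3 Stress libraries came from mice held in restraint daily for 7 days. The 1 Dexamethasone library came from mice that received injections of dexamethasone, a synthetic glucocorticoid hormone, over 7 days, and the 2 Control libraries from mice given a control treatment. The series asks how stress reaches the gut through its own neurons and glia. The labels give neither the number of animals behind a library nor their age, so every p-value below reflects only how far these libraries spread, and that spread may be technical.

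Penk encodes proenkephalin, the precursor of the enkephalins, and Pdyn encodes prodynorphin, the precursor of the dynorphins. Enkephalins act mainly on the delta and mu opioid receptors (Oprd1 and Oprm1) and dynorphins mainly on the kappa receptor (Oprk1); all are coupled to inhibitory G proteins, and in the gut wall they damp transmitter release, which is why opioid drugs slow the bowel. Tac1 encodes the precursor of substance P and neurokinin A, excitatory transmitters of enteric motor neurons, and Tacr1, Tacr2 and Tacr3 encode the tachykinin receptors NK1, NK2 and NK3, which couple to calcium release. NK1 is known from enteric neurons and pacemaker cells, NK2 from the muscle itself and NK3 from enteric neurons.

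The files held 11040 barcodes and 58954323 UMIs, which are counts of unique transcript molecules, between 6057994 and 14838057 a library. A barcode was kept if it showed 300 genes or more and no more than 5% of its UMIs were mitochondrially encoded, which left 3430 nuclei once doublets were removed (31.1% of the barcodes), and 17 barcode sequences occurred in more than 1 library, 3 of them among kept nuclei. Clusters were named from marker lists with the suffix -like: 527 nuclei were neuron-like, 878 glia-like, 314 smooth muscle-like, 205 fibroblast-like, 438 epithelium-like and 23 enteroendocrine-like. Classes other than neurons and glia were therefore present. Neuron-like nuclei numbered 34, 100 and 104 in Stress 1, 2 and 3, 70 in the Dexamethasone library, and 157 and 62 in Control 1 and 2. Their median depth was 2943, 8433 and 8905.5 UMIs in Stress 1, 2 and 3, 1061.5 UMIs in the Dexamethasone library, and 2355 and 4538 UMIs in Control 1 and 2. Of 11 neuron markers, 10 were detected in the neuron-like nuclei of every library.

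In GENCODE M21 (GRCm38), Penk lies at chr4:4133531-4138819 on the minus strand, Tac1 at chr6:7554879-7565834 on the plus strand and Pdyn at chr2:129686565-129699844 on the minus strand. Oprm1 spans chr10:6758506-7038198, Oprd1 chr4:132110726-132144486 and Oprk1 chr1:5588466-5606131. Tacr1 spans chr6:82402334-82560104, Tacr2 chr10:62252438-62265990 and Tacr3 chr3:134829007-134934579. The gene model of Penk overlaps A830012C17Rik on the other strand and that of Oprm1 overlaps Gm10945 and Ipcef1 on the other strand; the use of strand in counting is not given in the sources used here, so reads of these pairs may not be separable. Promoter windows in RefSeq (GRCm38.p6) matched 7 of the 9 genes, and none was listed for Penk or Oprk1. The 250 bases before the start are printed for Tac1, the peptide gene with most UMIs, and for Tacr3, the receptor gene of glia, both on the plus strand, with the letters CGTCA in capitals; these letters are the core of the cAMP response element, the site bound by CREB.
Tac1, chr6:7554811-7555060: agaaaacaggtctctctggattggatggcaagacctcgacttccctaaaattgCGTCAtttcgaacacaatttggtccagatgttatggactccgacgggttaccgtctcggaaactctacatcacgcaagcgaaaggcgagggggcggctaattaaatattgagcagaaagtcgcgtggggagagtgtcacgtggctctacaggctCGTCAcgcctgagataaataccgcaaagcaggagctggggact
Tacr3, chr3:134828757-134829006: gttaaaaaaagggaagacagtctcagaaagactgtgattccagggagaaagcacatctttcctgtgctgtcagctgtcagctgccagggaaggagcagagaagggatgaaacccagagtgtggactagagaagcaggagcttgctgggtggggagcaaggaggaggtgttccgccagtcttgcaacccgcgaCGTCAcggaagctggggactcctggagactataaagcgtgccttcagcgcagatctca

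The Tac1 window holds CGTCA 2 times, beginning 197 and 43 bases before the RefSeq start, and the Tacr3 window holds it 1 time, beginning 58 bases before the start. The GENCODE model of Tac1 starts inside the printed window. Among the 10 windows of the 7 genes, read on both strands, Tacr1 was the only other gene with CGTCA, and 17.7% of 32817 mouse promoter windows of the same length hold it. None of the 10 windows held the full element TGACGTCA (1.55% of all windows), the AP-1 letters TGANTCA (6.75%), the glucocorticoid response element, AGAACA and TGTTCT with 3 free bases between them (0.0091%), or its half-site AGAACA (16.1%). These are matches of letters in a short window and describe no binding.

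The peptide genes Penk and Tac1 were neuronal. Neuron-like nuclei held 1947 of 2116 Penk UMIs (92.0%) and 3617 of 3897 Tac1 UMIs (92.8%). Over all barcodes, before the filter, Penk had 6552 UMIs and Tac1 12561. These shares, and those of the other genes below, describe the kept nuclei only. Over the 6 libraries Penk averaged 432 ± 218 CPM (UMIs per 1000000 UMIs of the class; SD, n = 6 libraries) in neuron-like nuclei. Fibroblast-like nuclei followed at 47.1 ± 16.4 CPM (n = 6), with Penk in 19 of 205 nuclei and in every library, and glia-like nuclei had 20.04 ± 23.1 CPM; these lower classes overlapped each other in range. Penk was found in 24.1% of neuron-like nuclei at a median depth of 4463 UMIs, against 2.51% of epithelium-like nuclei, a type not expected to express it, at 2365.5 UMIs. Tac1 averaged 790 ± 285 CPM in neuron-like nuclei, and was found in 35.7% of them against 6.39% of epithelium-like nuclei. Enteroendocrine-like nuclei, the hormone cells of the epithelium, held 11 Tac1 UMIs in 4 of 23 nuclei (17.4%, exact 95% interval 4.95% to 38.8%), and no Penk UMI, which allows a level of up to 42.6 CPM. All intervals and limits of this kind cover counting error only.

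Pdyn was close to the limit of detection in the kept nuclei. It had 260 UMIs over all barcodes and 31 in all kept nuclei, 26 of the latter in 19 neuron-like nuclei. Neuron-like nuclei held 4, 10 and 4 Pdyn UMIs in Stress 1, 2 and 3, 0 in the Dexamethasone library, and 6 and 2 in Control 1 and 2. In the Dexamethasone library a count of 3 UMIs would be 4.95 CPM. Control 1 and 2 were at 8.99 and 5.62 CPM, which rest on those few UMIs, so no lower level is read from the 0. Over all barcodes the Dexamethasone library had 29 Pdyn UMIs (3.30 CPM). Control 1 then had 37 (5.33 CPM) and Control 2 had 12 (0.809 CPM). Pdyn did not pass the filter on low counts for Stress against Control, and no fold is given for Dexamethasone against a count of 0.

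The 3 opioid receptor genes were neuronal as well. Neuron-like nuclei held 853 of 887 Oprm1 UMIs (96.2%), 320 of 332 Oprd1 UMIs (96.4%) and 294 of 312 Oprk1 UMIs (94.2%). Their mean levels there were 185 ± 59.8 CPM for Oprm1, 69.4 ± 25.3 CPM for Oprd1 and 71.7 ± 28.3 CPM for Oprk1 (SD, n = 6 libraries each). In no other class did the pooled level of any of the 3 exceed 6.75 CPM, the value of Oprm1 in epithelium-like nuclei. The unnamed nuclei were pooled for this. Among them, cluster 18 (77 nuclei led by Dock2 and Ptprc) had Oprd1 at 33.2 CPM and Oprm1 at 22.1 CPM, from 3 and 2 UMIs. Cluster 19 had Oprk1 at 10.0 CPM, from 2 UMIs.

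The 3 tachykinin receptor genes were spread over different classes. Tacr1 was shared between neurons and muscle: neuron-like nuclei held 395 of its 585 UMIs (80.9 ± 46.8 CPM, n = 6) and smooth muscle-like nuclei 135 (142 ± 65.5 CPM, n = 6), and the 2 ranges over libraries overlapped. Vascular endothelium-like nuclei had a pooled Tacr1 level of 96.7 CPM, from 7 UMIs in 2 of 38 nuclei, both in Control 2. Tacr2 was almost confined to muscle, with 36 of 40 UMIs in smooth muscle-like nuclei (31.7 ± 18.5 CPM) and 1 UMI among all neuron-like nuclei. Tacr3 was a glial transcript in these nuclei: glia-like nuclei held 556 of its 620 UMIs (176 ± 49.8 CPM, n = 6), and 285 of 878 glia-like nuclei had at least 1. Neuron-like nuclei had Tacr3 at 9.33 ± 8.26 CPM, 37 UMIs in 28 nuclei, which was 5.31% of nuclei against 0.457% in epithelium-like nuclei.

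**Figure D1:**
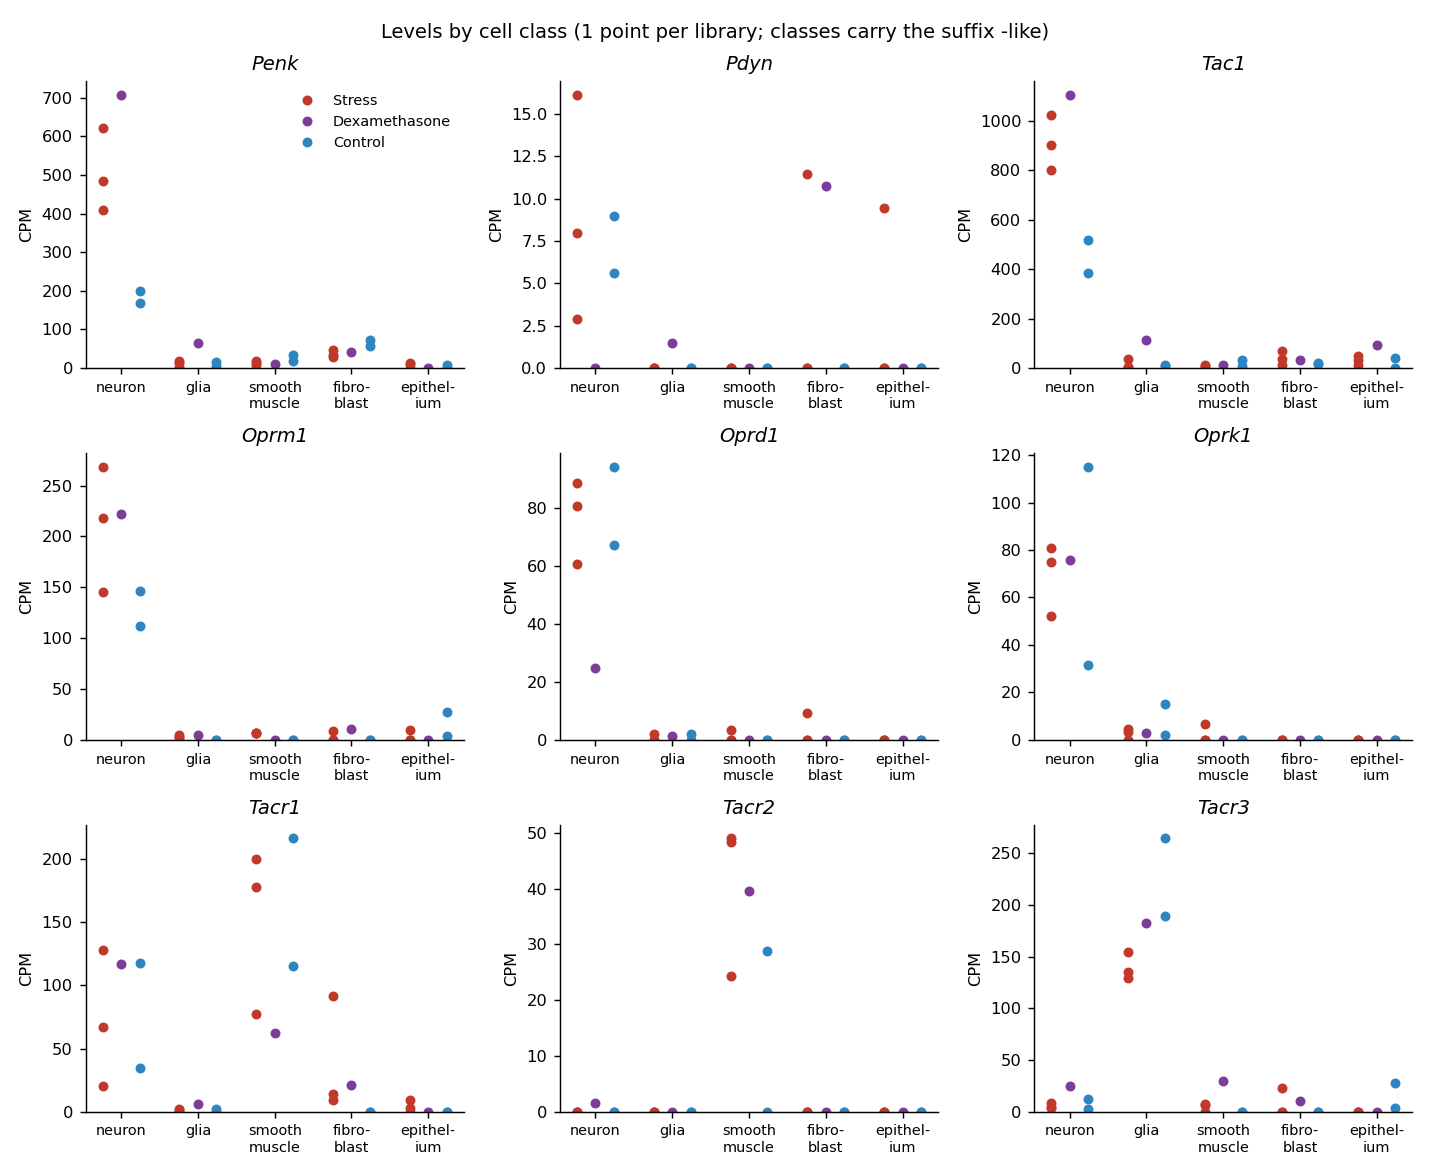
Level of each gene (vertical axis, UMIs per 1000000 of the class, linear scale with its own range per gene) in 5 cell classes (horizontal axis), with 1 point per library coloured by group. Penk, Tac1, Oprm1, Oprd1 and Oprk1 have their points off the floor in neuron-like nuclei, Tacr2 in smooth muscle-like nuclei and Tacr3 in glia-like nuclei, while Tacr1 is high in both neuron-like and smooth muscle-like nuclei.

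Within the neuron-like nuclei the genes were spread unevenly over 8 sub-clusters, described here without a test, since each sub-cluster is defined by the genes of its own nuclei (the 9 genes themselves were kept out of the clustering). Sub-cluster 0, 84 nuclei led by Penk, Tac1, Grm8, Kctd16 and Gda and named excitatory motor-like from a marker list that includes Chat, the enzyme of acetylcholine synthesis, held 89.0% of neuron-like Penk UMIs and 88.2% of Tac1 UMIs. It also held 55.8% of Oprk1 and 51.6% of Oprm1 UMIs, shares that its depth raises. By level it was not the highest for either receptor: Oprm1 was at 367 CPM there, 369 CPM in sub-cluster 1 and 246 CPM in sub-cluster 6, and Oprk1 was at 137 CPM there, under sub-clusters 5 and 6. Its median depth was 10123 UMIs per nucleus, above the 4463 of the whole class, and its Penk level was 1445 CPM against 213 CPM in the next sub-cluster, led by Klhl1. Its Chat level was 198 CPM, below the 356 CPM of sub-cluster 5 and the 246 CPM of sub-cluster 6, which both stayed unnamed. Slc5a7, another gene of the list, was highest in sub-cluster 0, at 380 CPM. None of the list's genes was among its leading genes, which include Sst. Sub-cluster 0 held 79.3% of neuron-like Sst UMIs, at 1282 CPM. The name therefore gives the best-scoring list and does not establish a single neuron type. Oprd1 lay elsewhere: 51.9% of its UMIs fell in sub-cluster 4 (165 nuclei led by Vcan, Opcml, Gria3, Moxd1 and Gm48877) and 29.1% in sub-cluster 3 (64 nuclei led by Vip, Gal, Rprml, Prokr1 and Ptgir, inhibitory motor-like), against 8.13% in sub-cluster 0. Both hold Nos1, the enzyme of nitric oxide synthesis, at 2319 and 2869 CPM.

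Tacr1 had its highest neuronal level in the sensory-type-like nuclei. Sub-cluster 7, 36 nuclei led by Nmu, Mgat4c, Cdh8, Gm30613 and Vgll3, held 46.8% of neuron-like Tacr1 UMIs, and 72.2% of its nuclei had at least 1, against 15.5% of the nuclei in sub-cluster 0. Its Tacr1 level was 293, 345 and 295 CPM in Stress 1, 2 and 3, 358 CPM in the Dexamethasone library, and 226 and 381 CPM in Control 1 and 2, so all 6 libraries had it and the groups overlapped. Behind these levels were 1, 11 and 6 nuclei in Stress 1, 2 and 3. The Dexamethasone library had 10 such nuclei, and Control 1 and 2 had 4 and 4. The value of Stress 1 is therefore that of a single nucleus. Oprk1 was also high in sub-cluster 6 (40 nuclei led by Nxph1, Fstl4, Nebl, Cfap44 and Lama2; 214 CPM) and in sub-cluster 5 (71 nuclei led by Tmem132c, Fbxw15, Dab1, Vipr2 and Rbm20; 176 CPM), which both carry Chat. Sub-cluster 2 (34 nuclei led by Sycn, Car1, Cyp2c55, 9030622O22Rik and Zg16) carried epithelium markers at 3319 CPM and at most 33 UMIs of any of the 9 genes, the value of Tac1.

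**Figure D2:**
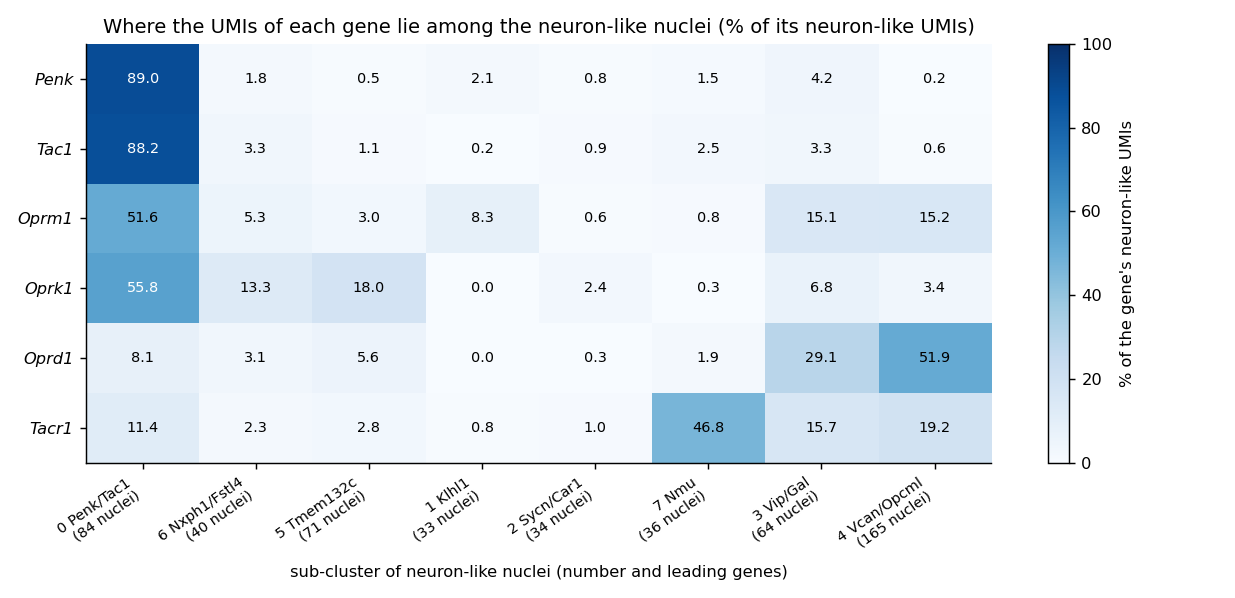
Share of each gene's neuron-like UMIs (percent, colour and printed value) that lay in each of the 8 sub-clusters of neuron-like nuclei (columns, with number and leading genes). Penk and Tac1 sit in sub-cluster 0 (89.0% and 88.2%), Oprd1 mostly in sub-cluster 4 (51.9%) and Tacr1 most in sub-cluster 7 (46.8%).

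The same arrangement was seen nucleus by nucleus. Of 127 neuron-like nuclei with a Penk UMI, 94 also had Tac1 (74.0%, against 23.5% of the 400 nuclei without Penk) and 70 had Chat (55.1% against 26.0%). Of 131 nuclei with Oprd1, 80.2% had Nos1 against 35.1% of the others, and of 87 with Oprk1, 67.8% had Chat against 26.1%. Of 74 nuclei with Tacr1, 41.9% had Nmu against 8.61% of the others. Pdyn nuclei were few, but 16 of 19 had Vip, the inhibitory peptide, against 31.1% of the others. The same nuclei also had Nos1 (78.9% against 45.1%) and Chat (52.6% against 32.3%) more often, so no single neuron type is read from them. Nuclei with a UMI were also deeper, with a median of 8856 UMIs for those with Penk against 3914 for those without. For Pdyn the medians were 17694 and 4156.5 UMIs. Depth alone raises co-detection, and no test was made.

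Penk and Tac1 UMIs came from few nuclei. The tenth of neuron-like nuclei with most Penk UMIs (53 nuclei) held 92.3% of them, and 35 nuclei had 10 or more. Those nuclei numbered 2, 7 and 8 in Stress 1, 2 and 3, 13 in the Dexamethasone library, and 3 and 2 in Control 1 and 2. In Stress 1 the 2 nuclei held 148 of 154 Penk UMIs, so that library's level rests on them.

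Across the 21 clusters of all nuclei, the genes whose levels followed each member most closely (Pearson's r of log2 of CPM with 10 added, searched over 10734 genes, a description over clusters of the same libraries) were Kctd8 (0.91), Slc5a7 (0.90) and Plppr4 (0.89) for Penk. For Tac1 they were Car10 (0.90), Chat (0.87) and Sst (0.86). Oprm1 was followed by A830018L16Rik (0.95), Lrfn5 (0.95) and Gm45321 (0.95), Oprd1 by Sv2b (0.92), Gm48877 (0.92) and Rab37 (0.90), and Oprk1 by Prmt8 (0.89), Grm5 (0.88) and Grik1 (0.88). Tacr1 was followed less closely, by Id4 (0.85) and Romo1 (0.79), and Tacr3 by Cmtm5 (0.96), Chadl (0.96) and Nes (0.94).

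Penk and Tac1 had higher levels in neuron-like nuclei after stress and after dexamethasone, and neither difference passed the test across all genes. Penk was at 621, 485 and 409 CPM in Stress 1, 2 and 3, 707 CPM in the Dexamethasone library, and 199 and 169 CPM in Control 1 and 2. The lowest Stress value exceeded the highest Control value, and the Dexamethasone library was the highest of all. Group means were 505 ± 108 CPM in Stress (SD, n = 3) and 184 ± 21.7 CPM in Control (SD, n = 2), a log2 fold change of 1.38 ± 0.24 (SE) with an adjusted p of 0.160 in edgeR's quasi-likelihood test with Benjamini-Hochberg adjustment. For Dexamethasone against Control the log2 fold change was 1.84 ± 0.29 and edgeR's adjusted p 0.0610; the fit takes the spread of the Stress and Control libraries for the 1 Dexamethasone library.

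Tac1 was at 1025, 803 and 903 CPM in Stress 1, 2 and 3, 1106 CPM in the Dexamethasone library, and 385 and 517 CPM in Control 1 and 2. Again the Stress and Control values did not overlap. The log2 fold change was 0.97 ± 0.21 for Stress (edgeR adjusted p = 0.211) and 1.22 ± 0.26 for Dexamethasone (edgeR adjusted p = 0.116). The 2 comparisons share the Control libraries.

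**Figure D3:**
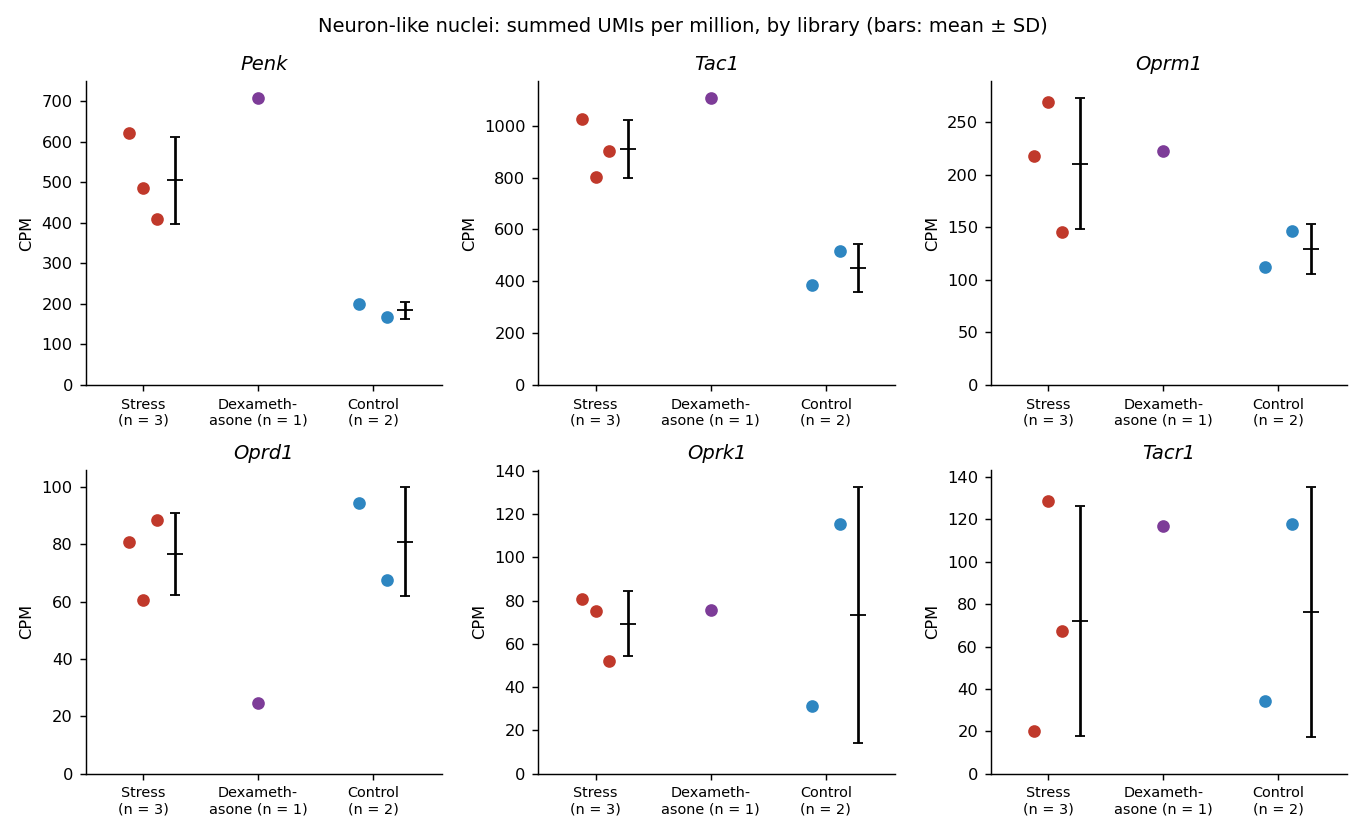
Level of 6 genes in neuron-like nuclei (vertical axis, UMIs per 1000000, from 0) by group, with 1 point per library and the mean ± SD beside groups of more than 1 library. Penk in Stress (409 to 621 CPM) and Dexamethasone (707 CPM) lies above Control (169 and 199 CPM), as does Tac1, while Oprm1, Oprk1 and Tacr1 overlap between Stress and Control and Oprd1 is lowest in the Dexamethasone library.

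Of the 9 genes, 6 passed the filter on low counts in neuron-like nuclei for Stress against Control, and 0 of the 6 were called (adjusted p under 0.05), where 0% of all 8066 genes tested were called, 804 had an unadjusted p under 0.05 and DESeq2 called 14. Penk and Tac1 were the 2 of these 6 whose Stress and Control values did not overlap, a share to be read against 28.4% of all genes tested. For Dexamethasone against Control, 8 of the 9 passed the filter and 0 were called, where 0% of 9282 genes were called, 958 had an unadjusted p under 0.05 and DESeq2 called 13. With DESeq2 in place of edgeR, Penk passed for Stress (log2 fold change 1.39, adjusted p = 0.00701) and for Dexamethasone (1.85, adjusted p = 0.00286). With no filter on low counts, edgeR's adjusted p was 6.28e-07 and 1.28e-08 for Penk and 0.0012 and 0.00122 for Tac1, for Stress and for Dexamethasone. Without Control 1 and Stress 1 together, Penk passed for Stress (edgeR adjusted p = 0.0203). For Dexamethasone, Penk passed without Stress 1 (edgeR adjusted p = 0.0168) or Stress 3 (0.0397), and Tac1 without Stress 1 (0.0386).

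Both the share of excitatory motor-like nuclei (sub-cluster 0) and the Penk and Tac1 level inside them were higher in each Stress library than in each Control library, in a design that cannot reach 0.05. They made up 17.6%, 18.0% and 19.2% of neuron-like nuclei in Stress 1, 2 and 3, 21 of 70 nuclei in the Dexamethasone library, and 8.28% and 9.68% in Control 1 and 2. The means were 18.3 ± 0.83% in Stress (SD, n = 3) and 8.98 ± 0.99% in Control (SD, n = 2), with a 2-sided exact permutation p of 0.2, the smallest that 10 arrangements allow. Inside these nuclei Penk was at 1369, 1647 and 1208 CPM in Stress 1, 2 and 3, 2272 CPM in the Dexamethasone library, and 1008 and 709 CPM in Control 1 and 2 (exact permutation p = 0.2). Tac1 was there at 2115, 2693 and 2777 CPM in Stress 1, 2 and 3, 3626 CPM in the Dexamethasone library, and 1592 and 1997 CPM in Control 1 and 2 (exact permutation p = 0.2). The adjusted p was 0.3 for each of these over the 9 measures tested this way. These values rest on 6, 18 and 20 nuclei in Stress 1, 2 and 3, 21 in the Dexamethasone library, and 13 and 6 in Control 1 and 2, with median depths of 20564.5, 16579.5 and 19649 UMIs, 962 UMIs, and 6419 and 8893.5 UMIs for the same libraries in the same order. With a finer sub-clustering, chosen after seeing the data (12 sub-clusters), the sub-cluster with most Penk held 4.27 ± 2.08% of neuron-like nuclei in Stress, 1.43% in the Dexamethasone library and 2.72 ± 1.56% in Control (exact permutation p = 0.4), so the share depends on how finely these nuclei are divided.

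With sub-cluster 0 left out, an alternative chosen after seeing the data, the log2 fold change of Penk for Stress was 0.06 (edgeR adjusted p = 0.989) and that of Tac1 turned to -0.74 (edgeR adjusted p = 0.209), while for Dexamethasone they were 1.38 (0.343) and 0.06 (0.964). Thinning every nucleus to 1000 UMIs, which leaves out 6, 3 and 8 nuclei of Stress 1, 2 and 3, 35 of 70 in the Dexamethasone library, and 21 and 5 of Control 1 and 2, gave a Penk UMI in 10.7%, 13.4% and 15.6% of nuclei in Stress 1, 2 and 3, 7 of 35 nuclei in the Dexamethasone library, and 7.35% and 3.51% in Control 1 and 2 (exact permutation p = 0.2). Unthinned, the shares were 11.8%, 29.0% and 33.7% in Stress 1, 2 and 3, 47.1% in the Dexamethasone library, and 11.5% and 12.9% in Control 1 and 2, so Stress 1 was then between the Control libraries. Glia-like nuclei, a type with little Penk, had a thinned share of 1.02%, 1.75% and 1.13% in Stress 1, 2 and 3, 2.78% in the Dexamethasone library, and 2.30% and 0.74% in Control 1 and 2, below the neuron-like share of the same library each time. The thinned Tac1 shares were 17.9%, 18.6% and 21.9% in Stress 1, 2 and 3, 28.6% in the Dexamethasone library, and 16.9% and 14.0% in Control 1 and 2 (exact permutation p = 0.2).

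Without the filter on mitochondrially encoded UMIs, the nuclei were clustered and named again and the classes held other nuclei: 1080 were neuron-like, and the class named smooth muscle-like then carried Penk at 235 ± 120 CPM and Oprm1 at 58.7 ± 36.4 CPM (SD, n = 6 libraries), against 16.8 and 3.48 CPM with the filter. The values without the filter are therefore not those of the same class. In the neuron-like nuclei of that setting Penk was at 194, 397 and 390 CPM in Stress 1, 2 and 3, 339 CPM in the Dexamethasone library, and 284 and 165 CPM in Control 1 and 2. The groups then overlapped, since Stress 1 lay between the Control libraries, and the log2 fold change of Penk was 0.41 for Stress (edgeR adjusted p = 0.587) and 0.40 for Dexamethasone (0.648). Tac1 gave 0.02 (0.974) and 0.12 (0.804). The median share of mitochondrially encoded UMIs over all barcodes was 13.4%, 10.9% and 4.44% in Stress 1, 2 and 3, 5.98% in the Dexamethasone library, and 8.80% and 19.8% in Control 1 and 2; its part in the result was not tested. Over all barcodes with no filter and no classes, Penk was at 39.0, 132 and 222 CPM in Stress 1, 2 and 3, 165 CPM in the Dexamethasone library, and 99.4 and 27.7 CPM in Control 1 and 2. In such sums, fewer neurons and less RNA per neuron cannot be told apart.

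**Figure D4:**
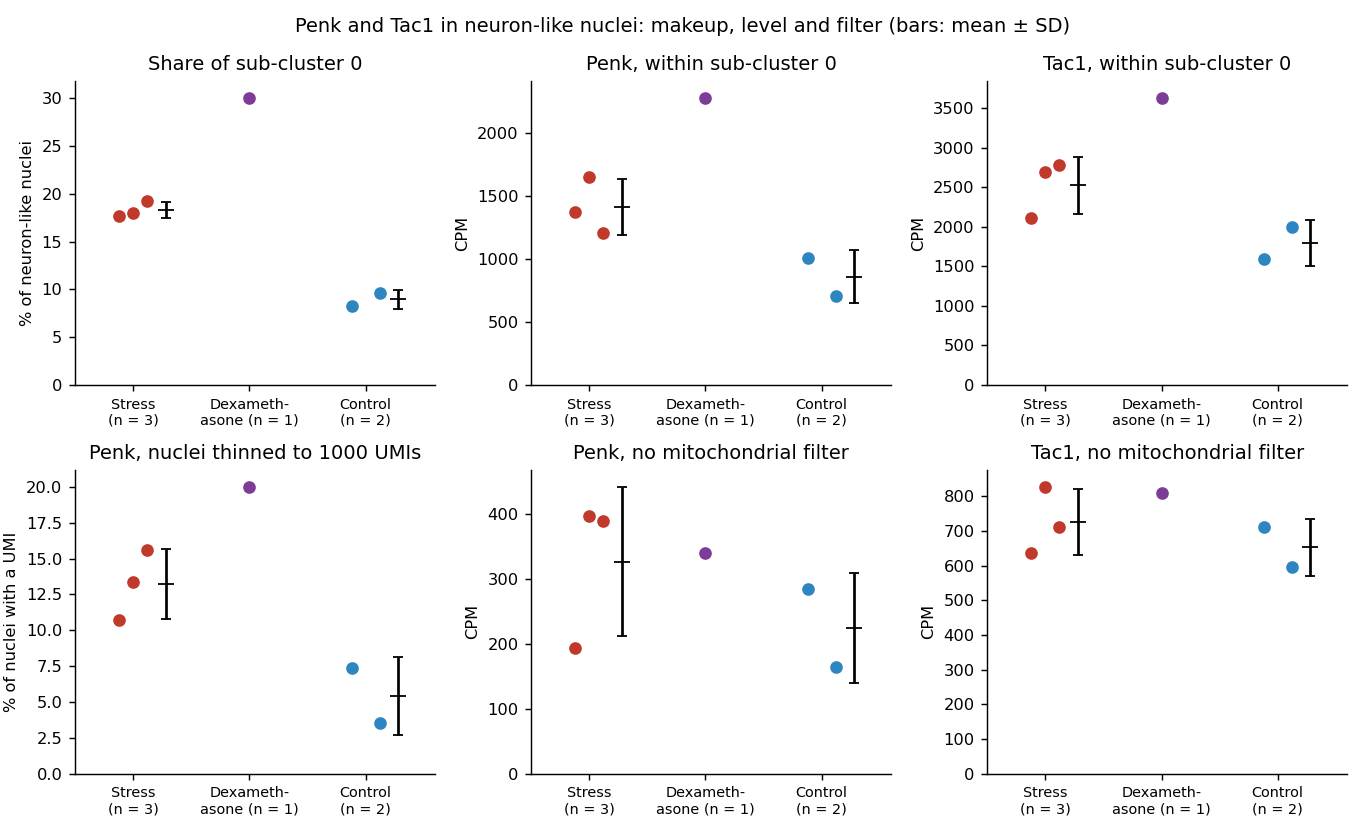
Share of sub-cluster 0 among neuron-like nuclei (percent), level of Penk and Tac1 within it (CPM), share of nuclei with a Penk UMI after thinning to 1000 UMIs (percent), and levels of Penk and Tac1 in neuron-like nuclei without the mitochondrial filter (CPM), by group, 1 point per library with mean ± SD beside groups of more than 1 library. In the first 4 panels every Stress value lies above every Control value, and in the last 2, where the classes were named again and hold other nuclei, the groups overlap.

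The opioid receptor genes in neuron-like nuclei showed smaller or less even differences. Oprm1, the mu receptor, was at 218, 269 and 145 CPM in Stress 1, 2 and 3, 223 CPM in the Dexamethasone library, and 112 and 146 CPM in Control 1 and 2; Stress 3 lay just below Control 2, so the groups overlapped. Its log2 fold change was 0.66 ± 0.29 for Stress (edgeR adjusted p = 0.489) and 0.72 ± 0.36 for Dexamethasone (0.523). Oprd1, the delta receptor, was at 80.7, 60.6 and 88.5 CPM in Stress 1, 2 and 3, 24.7 CPM in the Dexamethasone library (15 UMIs), and 94.4 and 67.4 CPM in Control 1 and 2. The Dexamethasone library was the lowest of the 6, with a log2 fold change of -1.83 ± 0.42 (edgeR adjusted p = 0.123), while Stress and Control overlapped (-0.20 ± 0.25, edgeR adjusted p = 0.833). With no filter on low counts the edgeR adjusted p for Dexamethasone was 0.00405. Smooth muscle markers, 8 genes, summed to 595 CPM in the neuron-like nuclei of the Dexamethasone library and to 39.3 to 229 CPM in the other libraries; their part in the result was not tested. In sub-cluster 4, where most Oprd1 lay, the level was 166, 192 and 174 CPM in Stress 1, 2 and 3, 98.1 CPM in the Dexamethasone library (9 UMIs in 10 nuclei), and 150 and 145 CPM in Control 1 and 2. Sub-cluster 4 made up 14.3% of neuron-like nuclei in the Dexamethasone library. In Stress 1, 2 and 3 it made up 32.4%, 28% and 31.7%, and in Control 1 and 2 36.3% and 41.9%. Sub-cluster 3, next in Oprd1 UMIs, went the other way, at 24.3% in the Dexamethasone library and 3.23% to 18.3% in the others. The part of these shares in the Oprd1 difference was not tested.

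Oprk1, the kappa receptor, was at 80.7, 75.0 and 52.2 CPM in Stress 1, 2 and 3, 75.8 CPM in the Dexamethasone library, and 31.5 and 115 CPM in Control 1 and 2. The Control libraries were the lowest and the highest of the 6, and the log2 fold changes were -0.06 ± 0.45 for Stress (edgeR adjusted p = 0.988) and 0.11 ± 0.57 for Dexamethasone (0.968). Neuronal Tacr1 was spread as widely, at 20.2, 128 and 67.5 CPM in Stress 1, 2 and 3, 117 CPM in the Dexamethasone library, and 34.5 and 118 CPM in Control 1 and 2 (0.20 ± 0.57 for Stress, edgeR adjusted p = 0.942; 0.67 ± 0.69 for Dexamethasone, 0.776). Tacr3 passed the filter in neuron-like nuclei only for Dexamethasone, where its log2 fold change was 1.45 ± 0.88 (edgeR adjusted p = 0.604). It was at 24.7 CPM in the Dexamethasone library (15 UMIs). The means were 5.49 CPM in Stress (13 UMIs) and 7.40 CPM in Control (9 UMIs). Tacr3 thus entered the test through the library where it was high, and nothing is read from its fold.

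Other genes of the same pathways did not pass the test in neuron-like nuclei either. Of 11 genes for peptide processing and dense core vesicles, 11 were tested, 0 rose and 0 fell in each comparison. For Stress, 10 of the 11 had a log2 fold change above 0, with a median of 0.36 against 0.00 over all genes tested; for Dexamethasone 8 did, with a median of 0.23 against -0.01. Of the 4 genes of smallest p for Stress, the log2 fold change was 1.42 for Vgf, a granule protein (edgeR adjusted p = 0.308), 0.62 for Scg2, secretogranin II (0.426), 0.59 for Scg3 (0.462) and 0.41 for Pcsk1n, a convertase inhibitor (0.487). Of 7 peptide-degrading enzymes 4 were tested and 0 passed in each comparison, and of 23 genes of receptor signalling 22 were tested and 0 passed in each. Of the signalling genes, Plcb1, a phospholipase that acts downstream of tachykinin receptors, had 0.79 for Stress (edgeR adjusted p = 0.438), and Kcnj5, a subunit of the potassium channel opened by opioid receptors, had 1.63 for Dexamethasone (0.269). Of the 5 other ligands and receptors, Oprl1, the nociceptin receptor, was the 1 tested, and it did not pass (0.66 for Stress, edgeR adjusted p = 0.719; 0.62 for Dexamethasone, 0.822).

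Outside neurons, Tacr3 in glia was lower after stress without passing the test. Glia-like nuclei had Tacr3 at 135, 155 and 129 CPM in Stress 1, 2 and 3, 183 CPM in the Dexamethasone library, and 190 and 265 CPM in Control 1 and 2. Each Stress value lay under both Control values, and the Dexamethasone library lay just under Control 1. The means were 140 ± 13.4 CPM in Stress (SD, n = 3) and 227 ± 52.9 CPM in Control (SD, n = 2), a log2 fold change of -0.75 ± 0.21 with an edgeR adjusted p of 0.104. Tacr3 was the only one of the 9 genes tested there for Stress, and 0 of 1 was called where 2.03% of 6537 genes were; 29.2% of those genes had Stress and Control values that did not overlap. With Control 1 and Stress 1 left out together, each the shallowest of its group by median UMIs in glia-like nuclei, Tacr3 was -0.95 with an edgeR adjusted p of 0.0154. For Dexamethasone it was -0.22 ± 0.29 (edgeR adjusted p = 0.742). Of the 3 glia-like clusters, cluster 10 held 326 of the 556 UMIs, cluster 12 held 210 and cluster 9, led by Col28a1, held 20. By level the order was another, with cluster 12 at 210 CPM, cluster 10 at 169 CPM and cluster 9 at 63.8 CPM.

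Among glia-like nuclei, Penk and Tac1 counts were highest in the Dexamethasone library, where most of them lay in 2 nuclei. Nothing is read from their adjusted p below, since both entered the test through that library. Of 3 members tested, 2 were called, where 5.86% of 7674 genes were called; Penk and Tac1 passed the filter on low counts with the Dexamethasone library and not for Stress against Control, so they entered through the library where they were high and nothing is read from this count. Glia-like nuclei held 1, 6 and 17 Penk UMIs in Stress 1, 2 and 3, 44 in the Dexamethasone library, and 7 and 2 in Control 1 and 2, with a log2 fold change for Dexamethasone of 2.79 ± 0.65 (edgeR adjusted p = 0.0128). They held 2, 3 and 31 Tac1 UMIs in Stress 1, 2 and 3, 77 in the Dexamethasone library, and 6 and 3 in Control 1 and 2, with a log2 fold change for Dexamethasone of 3.59 ± 0.67 (edgeR adjusted p = 0.00221). In the Dexamethasone library 1 glia-like nucleus carried 33 Penk, 30 Tac1 and 15 neuron-marker UMIs beside 20 glia-marker UMIs, and another carried 20 Tac1 UMIs, 0 of Penk and 0 of the neuron markers. The other 111 glia-like nuclei of that library held 11 Penk and 27 Tac1 UMIs, or 16.7 and 41.1 CPM. Without these 2 nuclei, left out after seeing the data, Tac1 was 2.11 with an edgeR adjusted p of 0.149, and Penk no longer passed the filter on low counts. Without Control 2, Penk was 2.19 with an edgeR adjusted p of 0.0889. Without the mitochondrial filter, with the classes named again, glia-like nuclei held 13, 10 and 37 Penk UMIs in Stress 1, 2 and 3, 170 in the Dexamethasone library, and 23 and 15 in Control 1 and 2, and both genes passed for Dexamethasone (Penk 3.13, edgeR adjusted p = 0.00107; Tac1 3.06, 0.000589). Neuron markers summed to 251 CPM in the Dexamethasone glia-like nuclei and to 180 to 275 CPM in the other libraries, so these overlapped. Smooth muscle markers summed to 392.2 CPM there and to 27.7 to 130 CPM in the other libraries; their part in the result was not tested. Of the receptor signalling genes in glia-like nuclei, Cacna1b, a calcium channel subunit, was higher for Dexamethasone (1.83 ± 0.29, edgeR adjusted p = 0.000681). It was the only 1 of 13 tested that passed, where 5.86% of all 7674 genes were called. With 1 Dexamethasone library, nothing about these signalling genes is read from this count.

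In muscle, Tacr1 lay mostly in nuclei of the contractile cluster. Cluster 6, led by Myh11, Actg2, Pgm5, Ryr3 and Mrvi1, held 128 of the 135 smooth muscle-like Tacr1 UMIs. Smooth muscle-like nuclei with a Tacr1 UMI (56, leaving out 1 nucleus of 69520 UMIs in the Dexamethasone library) had smooth muscle markers at 14671 CPM and markers of the interstitial cells of Cajal, the pacemakers of the gut, at 298 CPM. The 257 nuclei without Tacr1 had them at 9818 and 926 CPM. Kit, the defining Cajal gene, had 6 of the 228408 UMIs in the nuclei with Tacr1 and 101 of the 743770 in those without. Ano1, another gene of the Cajal list, had 52 and 506. Nuclei with Tacr2 numbered 33, and 8 of them also had Tacr1.

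No difference of the muscle receptors between groups passed the test. Tacr1 in smooth muscle-like nuclei was at 77.1, 200 and 178 CPM in Stress 1, 2 and 3, 62.6 CPM in the Dexamethasone library, and 115 and 217 CPM in Control 1 and 2. The Dexamethasone value was the lowest, with a log2 fold change of -1.41 ± 0.59 (edgeR adjusted p = 0.344), and Stress and Control overlapped (-0.11 ± 0.45, edgeR adjusted p = 0.970). Tacr1 was the 1 member tested there, and it was not called where 0.353% of 2836 genes were called for Stress and 0.982% of 3868 for Dexamethasone; 30.1% of the genes tested for Stress had Stress and Control values that did not overlap, and Tacr1 was not among them. Tacr2 had 7, 7 and 7 UMIs in Stress 1, 2 and 3, 12 in the Dexamethasone library, and 3 and 0 in Control 1 and 2, and did not pass the filter. Control 2 had only 23 smooth muscle-like nuclei, and its 0 allows up to 49.96 CPM, above every other library's level of Tacr2, so no difference could be seen at this depth.

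**Figure D5:**
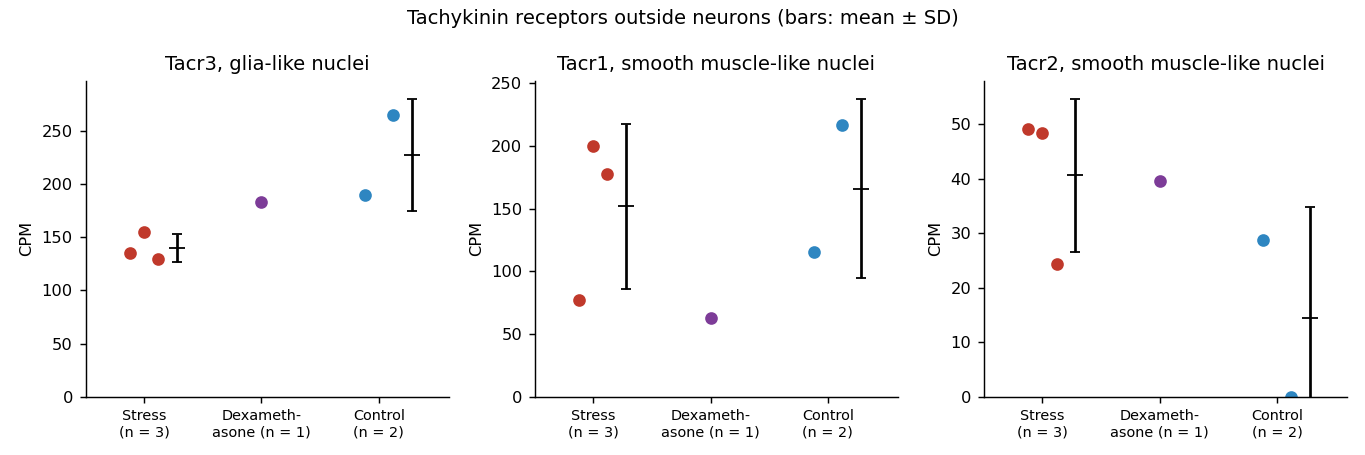
Level (CPM, from 0) of Tacr3 in glia-like nuclei and of Tacr1 and Tacr2 in smooth muscle-like nuclei by group, 1 point per library with mean ± SD beside groups of more than 1 library, the lower Control bar of Tacr2 ending at the axis. Tacr3 in Stress (129 to 155 CPM) lies below Control (190 and 265 CPM), and Tacr1 and Tacr2 overlap between the groups.

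None of the 9 genes passed the filter on low counts in fibroblast-like nuclei, where Penk had 2, 3 and 5 UMIs in Stress 1, 2 and 3, 4 in the Dexamethasone library, and 3 and 4 in Control 1 and 2, a spread of 28.2 to 73.6 CPM. Tacr1 was found in 7 fibroblast-like nuclei with 12 UMIs, 8 of them in Stress 2. In the unnamed nuclei Tacr1 had 24 UMIs in 4 nuclei.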

How the data were processed

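Transcripts of sorted colon nuclei were counted in 6 single-nucleus libraries. The authors' matrices were written by Cell Ranger 4.0.0 for Stress and Control and 5.0.1 for Dexamethasone, per the file headers, while the submitters' processing notes name version 5 and mm10; version and Dexamethasone cannot be told apart. The deposited values are whole-number counts of UMIs per gene and barcode; the other deposited files are names of genes and barcodes (other values). Whether intronic reads were counted is not given in the sources used here.

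Barcodes needed 300 or more genes and no more than 5% mitochondrially encoded UMIs (3461 passed), and scrublet in scanpy 1.11.5 removed 31 doublets (0.896%). The 2000 most variable genes, without the 9 genes reported, mitochondrial, ribosomal, sex-linked, glucocorticoid target and immediate early genes, gave 30 principal components, 15 neighbours and, by Leiden at resolution 1.0, the clusters. These were named by the mean log2 fold of markers (CPM with 10 added), over 0.5 for neurons and glia and 1.5 for others; 734 nuclei stayed unnamed. Neuron-like nuclei were clustered again at resolution 0.5.

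UMIs were summed per library and class, filtered with filterByExpr and tested with edgeR 4.0.16 (TMM, quasi-likelihood F-test, Benjamini-Hochberg, threshold 0.05); Stress against Control used 5 libraries and Dexamethasone against Control all 6. The test was checked on simulated counts. Shares were compared by exact permutation of libraries. Alternatives were DESeq2 1.42.0, no low-count filter, no mitochondrial filter, a stricter one (500 genes, 2%), doublets kept, resolution 0.5, members among the variable genes, a replicate block and each library left out; leaving out sub-clusters or single nuclei was chosen after seeing the data. The members, lists and comparisons were chosen with earlier results of these data known. The 9 members are always named; of the pathway lists, genes that passed and those of smallest p; 3 genes of closest pattern (1 of them, for Tacr1, is not reported here); and the 5 leading genes of a sub-cluster.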

Additional observations from a re-analysis of the deposited data

How the results depend on the processing

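The number of genes called in neuron-like nuclei, 0 in both comparisons, was 14 for Stress and 13 for Dexamethasone with DESeq2, and 145 and 213 with no filter on low counts. It was 12 for Dexamethasone with the stricter filter of nuclei and 44 without the mitochondrial filter. Without both Control 1 and Stress 1 it was 60 for Stress; leaving out 1 library gave 0 to 1 for Stress (1 without Control 1) and 0 to 48 for Dexamethasone (48, 7 and 9 without Stress 1, 2 and 3). Chosen after seeing the data, the cluster of most Penk UMIs gave 1 and 7, leaving out the Penk sub-cluster 9 and 49, and leaving out the sub-cluster of epithelium RNA 4 for Dexamethasone. In glia-like nuclei the Stress count of 133 was 273 with no filter on low counts, 32 with the stricter filter, 268 without the mitochondrial filter, 462 without both Control 1 and Stress 1, and 35 to 182 with 1 library left out (71 and 35 without Stress 2 and 3); the Dexamethasone count of 450 was 211 with DESeq2, 233 with the stricter filter and 835 without both. In smooth muscle-like nuclei the Stress count of 10 was 41 with no filter on low counts, 0 without the mitochondrial filter, 2 with doublets kept, 103 without both and 0 to 25 with 1 library left out (25 without Control 1, and 0, 1 and 2 without Stress 1, 2 and 3); the Dexamethasone count of 38 was 9 with DESeq2, 132 with no filter on low counts, 19 with the stricter filter, 11 without the mitochondrial filter, 84 without both and 20 to 104 with 1 library left out (97 and 104 without Stress 2 and 3, 20 without Control 2). Under the stricter filter, 179 nuclei were named neuron-like, with 813 CPM for Penk, 1418 for Tac1, 114 for Oprk1, 32.9 for Oprd1 and 0.748 for Pdyn; unnamed nuclei then had Oprd1 at 60.6, Oprm1 at 55.2 and Pdyn at 5.30 CPM, and macrophage-like nuclei Oprd1 at 47.4 CPM, so these are not levels of the same class and Oprd1 was not highest in neuron-like nuclei. Without the mitochondrial filter the classes also held other nuclei, which bears on every value given for it.

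Whether replicate numbers pair the libraries could not be told. Deviations of same-numbered Stress and Control libraries from their group means correlated at 0.0137 and 0.0709. With 2 Control libraries these deviations mirror each other, so the swapped pairs give the same values with the sign reversed. The measure therefore cannot settle pairing. The replicate block gave 27 and 67 calls in neuron-like nuclei, for Stress and Dexamethasone, and 4 and 87 in smooth muscle-like nuclei; with it Penk had 1.57 (edgeR adjusted p = 0.00198) and 1.69 (0.00429), Oprd1 -2.01 (0.0325) and Tacr1 1.84 (0.0272), the last 2 for Dexamethasone.

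Log2 fold changes of 4 neuron-like members changed sign for Stress, all without passing the test, as did 3 for Dexamethasone, 1 in glia and 1 in muscle. For Stress, Oprk1 was 0.71 with the stricter filter, 0.0782 with the replicate block, 0.59 without the Penk sub-cluster and -0.86 to 1.00 with 1 library left out. Oprd1 was 0.0433 without both Control 1 and Stress 1, 0.28 without the Penk sub-cluster and -0.40 to 0.0937 with 1 library left out, and Tac1 was -0.74 without that sub-cluster. Tacr1 was -0.12 with DESeq2, -0.13 with the replicate block, -0.37 without both and -0.57 to 1.19 with 1 library left out. For Dexamethasone, Oprk1 was -0.0854 without the mitochondrial filter, -0.70 without both and -0.69 to 1.18 with 1 library left out; Tacr1 was -3.23 with the stricter filter, -0.11 without both and -0.10 to 1.67 with 1 library left out; Oprm1 was -0.0365 without the mitochondrial filter. Tacr3 in glia for Dexamethasone was -0.43 to 0.0249 with 1 library left out. Tacr1 in muscle for Stress was 0.0406 with no filter on low counts, 0.52 without the mitochondrial filter and -0.56 to 0.35 with 1 library left out. The cause was not tested. Of the other results for members, 241 kept direction and side of the threshold, 16 came to pass and 2 no longer passed. Depth limits Pdyn and Tacr2 most, and 1 Dexamethasone library limits every comparison with it.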
